A study of Arabidopsis thaliana with 36 samples.

Results

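WRKY proteins are plant transcription factors that bind the W-box, a short DNA element with the core TTGAC, through a domain that carries the WRKY peptide. Group IIc is one branch of this family, with a single WRKY domain per protein, and several of its genes are known from work on defence, phosphate supply, senescence, salicylic acid and jasmonic acid. flg22 is a peptide from bacterial flagellin that plants perceive through the receptor kinase FLS2, and WRKY18 and WRKY40 are related WRKY factors of another branch (IIa) known chiefly as repressors of early defence genes. The 10 group IIc genes described here are WRKY75, WRKY45, WRKY8, WRKY28, WRKY71, WRKY48, WRKY23, WRKY57, WRKY50 and WRKY51, picked by locus from the 32678 genes of the count table.

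Whole 12-day-old Arabidopsis seedlings in liquid MS medium were profiled by RNA-seq of polyadenylated RNA. They were wrky18 wrky40 double mutants, wrky40 single mutants, wrky18 single mutants or Col-0 wild type (WT), harvested either without treatment (0 h) or once 1 h or 2 h had passed in fresh medium with 1 µM flg22. Each of the 12 groups had 3 biological replicates, 36 libraries in all. At 0 h the medium had not been changed, so flg22, the new medium and the hour of sampling cannot be told apart in any difference from 0 h. The seedlings were sampled whole, so fewer cells of a type and less RNA per cell cannot be told apart.

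The codons of one stretch of the WRKY domain are shown because they separate the 10 genes into the kinds of domain known in this group. Each line gives 7 codons of the coding strand from RefSeq's TAIR10.1 assembly, 5′ to 3′, with the next-to-last codon, the place where group IIc genes are known to differ, in capitals.
WRKY75: tggaggaaatatggcCAAaag
WRKY45: tggaggaagtacggcCAAaaa
WRKY8: tggagaaagtatggcCAAaaa
WRKY28: tggagaaaatacggcCAAaag
WRKY71: tggcgaaaatatggaCAAaaa
WRKY48: tggagaaaatacggcCAAaaa
WRKY23: tggcgaaaatatggtCAAaaa
WRKY57: tggcgtaaatatggaCAAaaa
WRKY50: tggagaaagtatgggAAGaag
WRKY51: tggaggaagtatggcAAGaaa
The codon in capitals was CAA, for glutamine, in 8 genes and AAG, for lysine, in WRKY50 and WRKY51. The stretch lies at chr5:4150786-4150806 on the minus strand in WRKY75 (AT5G13080, chr5:4149738-4151201), and at chr3:326932-326952 on the minus strand in WRKY45 (AT3G01970, chr3:325952-327412). It lies at chr5:9147579-9147599 on the minus strand in WRKY50 (AT5G26170, chr5:9146879-9148391), and at chr5:25908864-25908884 on the plus strand in WRKY51 (AT5G64810, chr5:25908247-25909881). In all 10 genes it is in a coding exon, and the genes have 2 or 3 coding exons each. The coding sequences of WRKY75 and WRKY45 are the shortest of the 10, at 145 and 147 codons, and WRKY48 has the longest at 399. Reads from similar stretches of WRKY75 and WRKY45, of WRKY8, WRKY28 and WRKY71, or of WRKY50 and WRKY51 could be shared between copies by the authors' counting, which was not tested.

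The libraries held 17287229 to 38709715 counts, and all 10 genes passed the filter on low counts, with 21356 genes tested. WRKY71, WRKY50 and WRKY51 had only 8, 16 and 16 counts over the 3 WT libraries at 0 h. They passed through libraries of groups where they are higher, so a rise from 0 h is favoured for them. The seedlings held shoot and root markers throughout: group means of RBCS1A, a Rubisco subunit, were 8201 to 15450 CPM (counts scaled to library size by TMM), and those of PIN2, a root auxin carrier, 26.4 to 35.3 CPM, while the seed storage gene CRU3 and the floral gene AG stayed at or below 1.08 and 0.339 CPM. These markers moved too: all 4 shoot markers fell at 2 h against 0 h in every genotype (median log2 -0.64 in wrky18 wrky40, -0.92 in wrky40, -0.55 in wrky18 and -0.75 in WT). In those comparisons 36.2%, 36.1%, 36.5% and 35.1% of all tested genes were lower, in the same order of genotypes. Group means of LHCB2.1, a light-harvesting protein, ran from 366.6 to 2068 CPM. Between genotypes, 2 of the 4 shoot markers were lower in wrky40 than in WT at 2 h (median -0.415), where 4.02% of all tested genes changed. None was lower in wrky18 wrky40 or wrky18 at any time, where 2.56% to 14.2% and 0.0234% to 0.117% changed. Of 5 root markers 1 was lower in wrky18 wrky40 than in WT at 1 h, and 1 at 2 h, where 5.79% and 14.2% of all tested genes changed. The part of these shifts in the results was not tested. WRKY40 fell at all 3 times in wrky18 wrky40 and in wrky40 (log2 fold changes against WT -3.22 to -2.96), and WRKY18 fell in wrky18 (-2.15 to -1.24) and in wrky18 wrky40 (-1.26 to -0.56). Transcripts of both remained countable in their mutants, at 25.2 CPM for WRKY40 in wrky40 at 1 h, against 224 CPM in WT, and at 28.1 CPM for WRKY18 in wrky18 at 1 h, against 125 CPM in WT. WRKY18 rose in wrky40, to 312 CPM at 1 h, against 125 CPM in WT (log2 fold change 1.32 ± 0.14, SE, adjusted p = 2.48e-07, edgeR). AT4G31805, next in locus number to WRKY18, had 0 or 1 counts in each wrky18 wrky40 and wrky18 group of 3 libraries, against 250 to 519 counts in each wrky40 and WT group, so the loss of WRKY18 and of this neighbour cannot be told apart in those lines. A pair of 1 h libraries stands apart by the share of counts from mitochondrial genes. WT 1 h replicate 3 had 0.134%, against 0.0131% to 0.0193% in the other 11 libraries numbered 3, and wrky18 wrky40 1 h replicate 1 had 0.0444%, against 0.0805% to 0.155% in the other 23 libraries numbered 1 or 2. WT 1 h replicate 3 also differed least from its fellow replicates, with a chi-square per gene of 4.20 and 5.69 against replicates 1 and 2. The other 34 pairs of replicates gave 6.20 to 31.3, and no pair was identical. That lowest value of 6.20 came from wrky18 wrky40 1 h replicates 1 and 3, a pair that holds the other library that stands apart. Whether these replicates are independent was not tested, and the SEs and adjusted p values that use these 1 h groups assume it. Calls among the 10 genes that ended without both libraries are therefore given with that value.

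In WT, 9 of the 10 genes were higher at 1 h than at 0 h and WRKY57 was lower, where 60.8% of all tested genes changed (28.8% higher, 32% lower). The same split held at 2 h against 0 h, where 71.8% of all tested genes changed (36.7% higher, 35.1% lower). Both counts were also 9 higher and 1 lower in each mutant. The 9 include WRKY71, WRKY50 and WRKY51, which passed the filter through groups where they are higher. In wrky18 wrky40, 62.7% of all genes changed at 1 h (30.1% higher, 32.7% lower) and 72.5% at 2 h (36.3% higher, 36.2% lower). In wrky40 the shares were 62.1% at 1 h (29.9% higher, 32.2% lower) and 73.3% at 2 h (37.2% higher, 36.1% lower), and in wrky18 60.3% at 1 h (28.3% higher, 32% lower) and 73.3% at 2 h (36.8% higher, 36.5% lower). The median log2 fold change of the 10 genes in WT was 2.85 at 1 h and 2.88 at 2 h, beside -0.0475 and -0.00524 over all tested genes. Calls are edgeR quasi-likelihood tests at a Benjamini-Hochberg adjusted p under 0.05 over all tested genes.

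**Figure D1:**
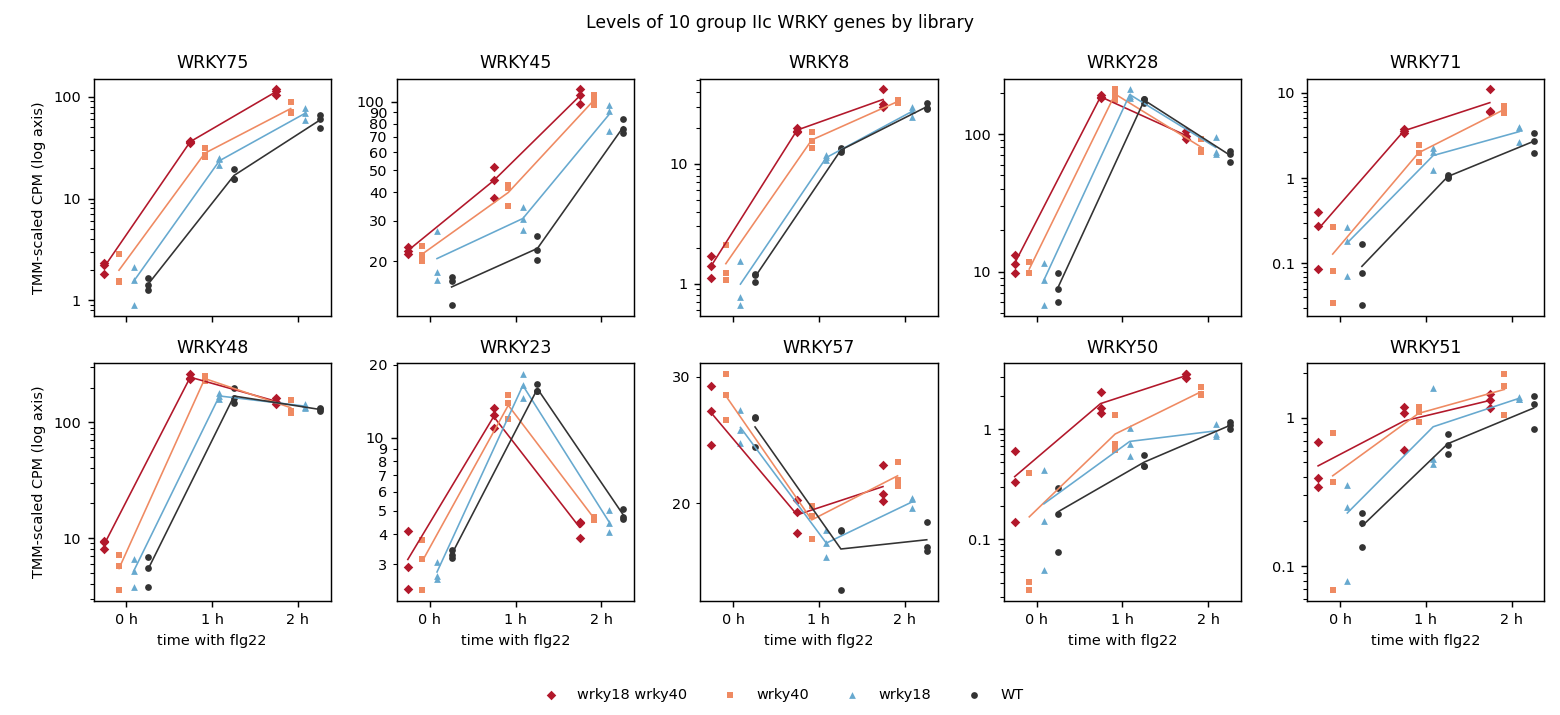
Level of each of the 10 genes in every library, in TMM-scaled CPM on a log axis, at 0 h, 1 h and 2 h, with each point a library and each line joining the means of 3 replicates. WRKY28, WRKY48 and WRKY23 peak at 1 h, WRKY75, WRKY45, WRKY8 and WRKY71 are highest at 2 h, and WRKY57 is lower at 1 h and 2 h than at 0 h. WRKY50 and WRKY51, with few counts, also have their highest means at 2 h.

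The 10 genes differed in when they peaked. WRKY28, which is known to bind the promoter of the salicylic acid synthesis gene ICS1, and WRKY48, known as a negative regulator of basal resistance to Pseudomonas, were already at their highest at 1 h. WRKY28 in WT stood at 6.01, 7.52 and 9.83 CPM at 0 h, 181, 179 and 169 CPM at 1 h and 63.2, 75.5 and 71.5 CPM at 2 h. These 3 sets did not overlap: the 1 h level was 22.6-fold that at 0 h (log2 4.5 ± 0.18, SE, adjusted p = 1.11e-20, edgeR), and the 2 h level was below that at 1 h (log2 -1.33 ± 0.15, adjusted p = 1.02e-08).

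WRKY48 in WT had 3.77, 5.53 and 6.91 CPM at 0 h, 197, 146 and 164 CPM at 1 h and 126, 130 and 132 CPM at 2 h. Its rise at 1 h was the largest of the 10 genes in WT, 31.1-fold (log2 4.96 ± 0.19). The later decline in WT was small (log2 -0.38 ± 0.15, adjusted p = 0.0361, edgeR), and that call ended without WT 1 h replicate 1 or any 1 of the 3 WT 2 h libraries (log2 -0.40 to -0.30, adjusted p 0.0629 to 0.148). Between 1 h and 2 h WRKY48 also fell in wrky18 wrky40 (log2 -0.69 ± 0.15) and wrky40 (-0.84 ± 0.15), and in wrky18 the change was -0.29 ± 0.15, which missed the threshold but was called in a fit of the 2 groups alone (-0.31, adjusted p = 0.00596).

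WRKY23, known for its part in auxin distribution and in nematode feeding sites, gave the shortest pulse. Its WT libraries held 3.27, 3.44 and 3.18 CPM at 0 h, 16.6, 15.6 and 15.6 CPM at 1 h and 4.61, 5.10 and 4.69 CPM at 2 h. The 1 h libraries were apart from all others, the level rising 4.83-fold by 1 h and falling between 1 h and 2 h (log2 -1.73 ± 0.14, adjusted p = 8.12e-12, edgeR). At 2 h it was still above 0 h by log2 0.54 ± 0.15 (adjusted p = 0.0021). In wrky18 wrky40 that last difference was 0.43 ± 0.16, and its call ended without any 1 of 4 libraries, wrky18 wrky40 0 h replicates 1 and 3 and 2 h replicates 2 and 3 (log2 0.26 to 0.40, adjusted p 0.0506 to 0.145), and in a fit of the 2 groups alone (adjusted p = 0.082).

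WRKY75, known from phosphate starvation, root hair growth, leaf senescence and salicylic acid, rose through both hours. In WT it had 1.41, 1.65 and 1.26 CPM at 0 h, 15.6, 19.5 and 15.5 CPM at 1 h and 49.8, 60.4 and 66.9 CPM at 2 h. No library of one time overlapped another, and the 2 h level was 40.9-fold that at 0 h (log2 5.35 ± 0.20, adjusted p = 3.08e-21, edgeR), the largest change of the 10 genes at 2 h in WT. From 1 h to 2 h it rose by log2 1.63 ± 0.15 in wrky18 wrky40, 1.45 ± 0.15 in wrky40, 1.55 ± 0.15 in wrky18 and 1.81 ± 0.15 in WT.

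WRKY45, a close relative of WRKY75 known as an activator of the phosphate transporter gene PHT1;1, started higher and moved later. Its WT libraries had 12.8, 16.4 and 17 CPM at 0 h, 25.7, 20.2 and 22.4 CPM at 1 h and 83.9, 72.5 and 75.9 CPM at 2 h. The rise was small by 1 h (log2 0.56 ± 0.15, adjusted p = 0.00124, edgeR) and larger between 1 h and 2 h (1.76 ± 0.14, adjusted p = 6.7e-12). WRKY8, known from resistance to Botrytis and, with its partner VQ9, from salt stress, had 1.03, 1.18 and 1.2 CPM at 0 h, 13.5, 12.5 and 13.2 CPM at 1 h and 29.4, 28.6 and 32.1 CPM at 2 h. Its change between 1 h and 2 h was log2 1.2 ± 0.15 (adjusted p = 4.05e-08, edgeR). WRKY8 lies 5255 bases from FLS2 on chromosome 5, and FLS2 rose as well in WT, by log2 2.72 ± 0.08 at 1 h and 2.88 ± 0.08 at 2 h.

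WRKY71, known from shoot branching and flowering, was barely counted at 0 h, with 8 counts over the 3 WT libraries (0.0761, 0.169 and 0.0324 CPM). It had 1.04, 1.07 and 1.02 CPM at 1 h and 1.99, 3.39 and 2.72 CPM at 2 h in WT. Its fold change from 0 h has a wide error for that reason (log2 3.43 ± 0.54 at 1 h and 4.81 ± 0.46 at 2 h), and the rise between 1 h and 2 h was log2 1.38 ± 0.32 (adjusted p = 0.00051, edgeR).

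WRKY50 and WRKY51, the pair with AAG in the WRKY stretch and both known for repressing jasmonic acid signalling when salicylic acid is high, were the lowest of the 10 at 2 h in WT. WRKY50 had 2, 5 and 9 counts at 0 h, 13, 10 and 12 at 1 h and 26, 36 and 26 at 2 h in WT, and WRKY51 had 6, 4 and 6, then 16, 14 and 16, then 33, 26 and 32. At 2 h against 0 h both rose, WRKY50 by log2 2.54 ± 0.51 (adjusted p = 4.92e-05, edgeR) and WRKY51 by 2.60 ± 0.52 (adjusted p = 4.83e-05). The WRKY50 rise at 1 h in WT (log2 1.43 ± 0.59, adjusted p = 0.0356) was not called without WT 0 h replicate 1 or 2 or WT 1 h replicate 1 or 3 (log2 1.1 to 1.51, adjusted p 0.054 to 0.132), nor without both libraries that stand apart (log2 1.35, adjusted p = 0.0833). Its rise between 1 h and 2 h in WT (1.12 ± 0.45, adjusted p = 0.0361) ended without any 1 of the 6 libraries (adjusted p 0.0515 to 0.115) and without both that stand apart (1.18, adjusted p = 0.065). WRKY51 at 1 h in wrky18 wrky40 was not called without wrky18 wrky40 0 h replicate 2 or 3 or 1 h replicate 1 or 3 (log2 0.85 to 0.96, adjusted p 0.101 to 0.159), without both that stand apart (adjusted p = 0.167) or with no filter (adjusted p = 0.0505). In wrky40 its 1 h call ended without wrky40 0 h replicate 2 (0.82, adjusted p = 0.105) and in a fit of the 2 groups alone (adjusted p = 0.0625). In wrky18 it ended without wrky18 1 h replicate 2 (1.2, adjusted p = 0.0759).

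WRKY57, known from drought tolerance and as a repressor of jasmonic acid-induced senescence, was the 1 gene that fell. In WT it had 26.3, 24 and 26.3 CPM at 0 h, 15.1, 18.36 and 18.3 CPM at 1 h and 17.4, 17.1 and 18.8 CPM at 2 h. Every 1 h and 2 h library lay below every 0 h library (log2 -0.57 ± 0.08 at 1 h, adjusted p = 2.67e-07, and -0.52 ± 0.08 at 2 h, adjusted p = 7.14e-07, edgeR). Between 1 h and 2 h it hardly differed in WT (log2 0.05 ± 0.08, libraries overlapping).

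**Figure D2:**
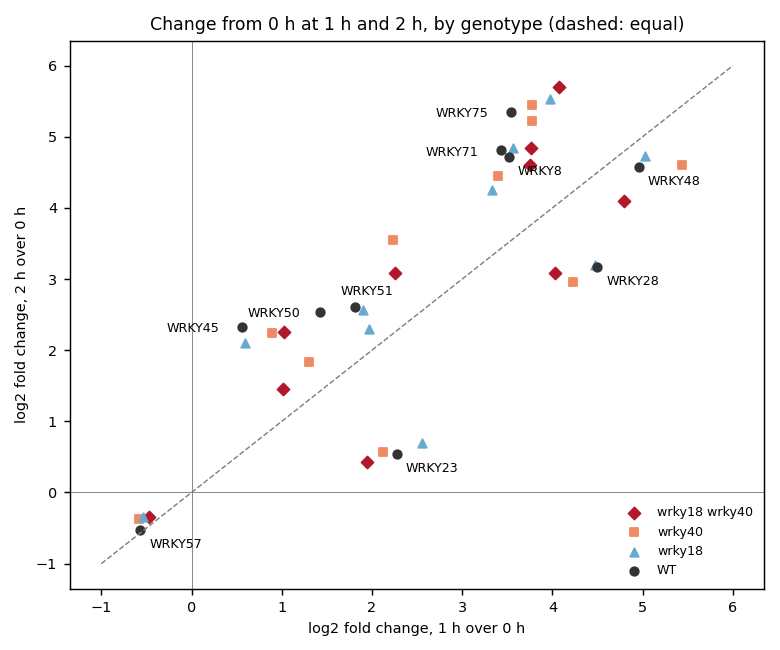
Log2 fold change at 2 h over 0 h (vertical) against that at 1 h over 0 h (horizontal) for the 10 genes in wrky18 wrky40, wrky40, wrky18 and WT, with gene names beside the WT points and a dashed line where both are equal. WRKY28, WRKY48 and WRKY23 lie below the line, WRKY75, WRKY45, WRKY8, WRKY71, WRKY50 and WRKY51 above it, and WRKY57 is the 1 gene below 0 on both axes. Each genotype's own 0 h libraries enter both axes.

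Counted in WT between 1 h and 2 h, 5 of the 10 genes rose and 3 fell, where 51.8% of all tested genes changed (27.9% higher, 23.9% lower). The 5 were WRKY75, WRKY45, WRKY8, WRKY71 and WRKY50, and the 3 were WRKY28, WRKY48 and WRKY23. Without both libraries that stand apart 7 were called, WRKY50 being the one lost, and a fit of the 2 groups alone added WRKY51 (0.76, adjusted p = 0.0477). The same 5 rose and the same 3 fell in wrky18 wrky40, where 47.8% changed (24.8% higher, 23% lower). In wrky40 6 rose and 3 fell, where 52% changed (27.1% higher, 24.9% lower), and in wrky18 5 rose and 2 fell, where 54.6% changed (28.7% higher, 25.8% lower). The rise of WRKY57 in these single mutants (log2 0.21 ± 0.08 in wrky40 and 0.19 ± 0.08 in wrky18) was not called by DESeq2, with RLE scaling, with no filter or in a fit of the 2 groups alone (adjusted p 0.062 to 0.125), nor with any 1 library left out except wrky40 2 h replicate 1 (adjusted p 0.0525 to 0.148). WRKY71 in wrky18 (0.92 ± 0.29) lost its call without wrky18 1 h replicate 2 (0.68, adjusted p = 0.0719). WRKY51 in wrky18 gained one without that library (1.37, adjusted p = 0.0168). WRKY50 in wrky18 wrky40 lost its call without 1 h replicate 2 or 3 or any 1 of the 2 h libraries (0.68 to 0.87, adjusted p 0.0659 to 0.159). Per length of transcript, the order of the levels in WT also changed with time. At 0 h the highest were WRKY57 at 12.3 ± 0.66 and WRKY45 at 11.3 ± 1.7 RPKM (SD, n = 3), which is CPM divided by exon length in kilobases. At 1 h WRKY28 led at 121 ± 4.6 RPKM and WRKY48 followed at 87.9 ± 13 RPKM. At 2 h WRKY75 stood at 72.9 ± 11 RPKM, WRKY48 at 67.4 ± 1.5 RPKM and WRKY45 at 57.0 ± 4.3 RPKM, and WRKY75 and WRKY48 differed by less than the SD of WRKY75.

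In the wrky18 wrky40 double mutant, 6 of the 10 genes were higher than in WT at 1 h and 6 at 2 h, with none lower, where 5.79% (3.99% higher) and 14.2% (7.23% higher) of all tested genes changed. At 0 h 2 were higher, where 2.56% changed (1.84% higher). WRKY75 and WRKY71 were called at both 1 h and 2 h and kept both calls with any 1 library left out.

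WRKY75 at 1 h had 36.2, 35.4 and 37.0 CPM in wrky18 wrky40, against 15.6, 19.5 and 15.5 CPM in WT. At 2 h it had 115, 118 and 104 CPM in wrky18 wrky40, against 49.8, 60.4 and 66.9 CPM in WT. Every double-mutant library was above every WT library at both times, by log2 1.1 ± 0.15 at 1 h (adjusted p = 1.13e-05, edgeR) and 0.93 ± 0.14 at 2 h (adjusted p = 2.74e-05). At 0 h the libraries had 2.35, 2.24 and 1.83 CPM in wrky18 wrky40, against 1.41, 1.65 and 1.26 CPM in WT, and the difference was not called. Without both libraries that stand apart the 1 h difference was 1.05 (adjusted p = 0.00168).

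The single mutants lay between. At 1 h WRKY75 had 25.4, 26.6 and 31.7 CPM in wrky40 and 24.3, 21.3 and 25.0 CPM in wrky18. At 2 h it had 88.8, 71.6 and 69.3 CPM in wrky40 and 69.6, 78.4 and 58.9 CPM in wrky18. Over the 12 groups, the order of its mean levels from low to high was WT, wrky18, wrky40 and wrky18 wrky40 at 0 h, then the same 4 at 1 h, then the same 4 at 2 h. Libraries of neighbouring genotypes in that order overlapped at 0 h for all 3 pairs of neighbours and at 1 h for none. At 2 h wrky18 overlapped WT and wrky40 overlapped wrky18, while wrky18 wrky40 was above every wrky40 library.

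WRKY71 at 1 h had 3.41, 3.55 and 3.8 CPM in wrky18 wrky40, against 1.04, 1.07 and 1.02 CPM in WT. At 2 h it had 10.9, 6.09 and 5.95 CPM in wrky18 wrky40, against 1.99, 3.39 and 2.72 CPM in WT. The groups did not overlap, and the differences were log2 1.78 ± 0.31 at 1 h (adjusted p = 0.000278, edgeR) and 1.48 ± 0.26 at 2 h (adjusted p = 0.000164). Replicate 1 of the double mutant at 2 h was the highest of the 36 libraries for this gene. Without both libraries that stand apart the 1 h difference was 1.80 (adjusted p = 0.00773).

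WRKY45 at 1 h had 45.5, 51.8 and 38.0 CPM in wrky18 wrky40, against 25.7, 20.2 and 22.4 CPM in WT, a difference of log2 0.98 ± 0.14 (adjusted p = 1.61e-05, edgeR) that was called with any 1 library left out and without both that stand apart (0.96, adjusted p = 0.00155). At 2 h it had 113, 107 and 97.3 CPM in wrky18 wrky40, against 83.9, 72.5 and 75.9 CPM in WT. That smaller difference (0.45 ± 0.13, adjusted p = 0.0218) was not called without WT 2 h replicate 2 or 3 or wrky18 wrky40 2 h replicate 1 or 2 (0.40 to 0.44, adjusted p 0.0597 to 0.0879). At 0 h WRKY45 was called too (0.52 ± 0.14, adjusted p = 0.0423), but not without WT 0 h replicate 1 or 2 or any 1 wrky18 wrky40 0 h library (0.41 to 0.57, adjusted p 0.0625 to 0.351), nor in a fit of the 2 groups alone (adjusted p = 0.0758).

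WRKY50 at 1 h had 78, 39 and 42 counts in wrky18 wrky40, against 13, 10 and 12 counts in WT, and at 2 h it had 53, 70 and 84 counts, against 26, 36 and 26 counts in WT. Scaled to depth the groups did not overlap at either time, and the differences were log2 1.78 ± 0.42 at 1 h (adjusted p = 0.0078, edgeR) and 1.5 ± 0.36 at 2 h (adjusted p = 0.00429). The 1 h call ended without wrky18 wrky40 1 h replicate 1 (1.55, adjusted p = 0.0612) and without both libraries that stand apart (1.66, adjusted p = 0.119), and the 2 h call held with any 1 library left out. Its relative WRKY51 was not called at any time in wrky18 wrky40 against WT, with 42, 15 and 32 counts in wrky18 wrky40 at 1 h, against 16, 14 and 16 counts in WT (log2 0.54 ± 0.44).

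Each of the remaining double-mutant calls against WT ended when some single libraries were left out. WRKY48 was higher at 0 h (log2 0.71 ± 0.19, adjusted p = 0.0313, edgeR) and at 1 h (0.54 ± 0.15, adjusted p = 0.03). Its 0 h call ended without WT 0 h replicate 1 or 2 or wrky18 wrky40 0 h replicate 2 or 3 (0.51 to 0.72, adjusted p 0.106 to 0.323) and in a fit of the 2 groups alone (adjusted p = 0.139). Its 1 h call ended without WT 1 h replicate 2 or 3 or any 1 wrky18 wrky40 1 h library (0.45 to 0.57, adjusted p 0.0517 to 0.168) and without both that stand apart (adjusted p = 0.192).

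WRKY8 was higher in wrky18 wrky40 at 1 h, with 18.6, 20.1 and 18.8 CPM, against 13.5, 12.5 and 13.2 CPM in WT (log2 0.55 ± 0.15, adjusted p = 0.0208, edgeR). This call ended without WT 1 h replicate 2 or 3 or wrky18 wrky40 1 h replicate 2 (0.52 to 0.56, adjusted p 0.0652 to 0.0831) and without both that stand apart (0.58, adjusted p = 0.118), though the libraries did not overlap. At 2 h WRKY28 was higher by 0.48 ± 0.15 (adjusted p = 0.031), and its call ended without WT 2 h replicate 1 or 3 or wrky18 wrky40 2 h replicate 1 or 2 (0.41 to 0.49, adjusted p 0.0655 to 0.154). WRKY57 was higher at 2 h by 0.24 ± 0.08 (adjusted p = 0.0388), and its call ended without WT 2 h replicate 1 or 2 or wrky18 wrky40 2 h replicate 1 or 2 (0.20 to 0.26, adjusted p 0.0676 to 0.171) and in a fit of the 2 groups alone (adjusted p = 0.0643). WRKY23 had no call against WT (log2 -0.38 at 1 h, -0.17 at 2 h), though it was called lower at 1 h by DESeq2 (adjusted p = 0.048) and in a fit of the 2 groups alone (-0.39, adjusted p = 0.018). Calls were also gained by WRKY28 at 0 h, by DESeq2 (0.57, adjusted p = 0.0257) and without WT 0 h replicate 3 (0.75, adjusted p = 0.0141). WRKY48 gained one at 2 h in a fit of the 2 groups alone (0.23, adjusted p = 0.0316).

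**Figure D3:**
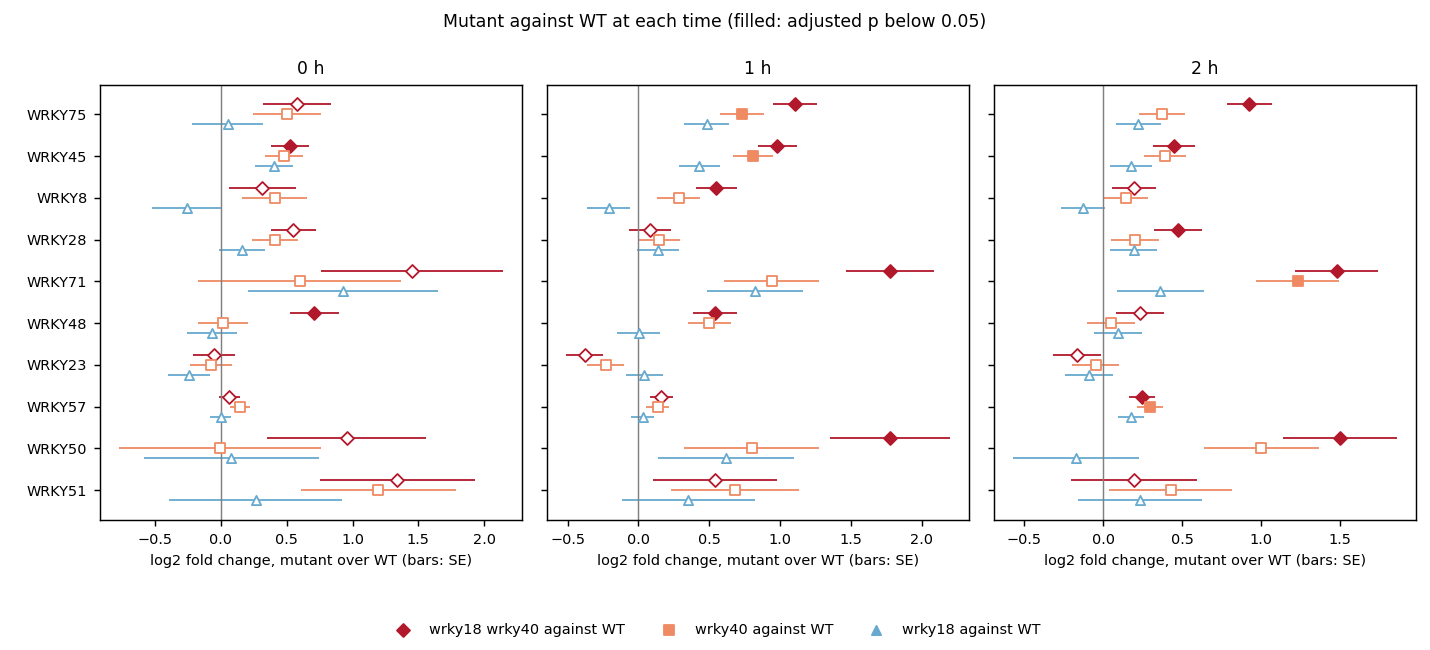
Log2 fold change of each gene in wrky18 wrky40, wrky40 and wrky18 over WT at 0 h, 1 h and 2 h, with bars of 1 SE and filled symbols where the adjusted p was below 0.05. The double mutant has 2, 6 and 6 filled symbols, wrky40 has 0, 2 and 2, and wrky18 has none. All 3 contrasts at a time use the same WT libraries.

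In the wrky40 single mutant, 2 of the 10 genes were higher than in WT at 1 h, where 2.23% of all tested genes changed (1.68% higher), and 2 at 2 h, where 4.02% changed (2.74% higher). At 1 h these were WRKY45 and WRKY75. WRKY45 had 34.8, 43.1 and 42.0 CPM in wrky40, against 25.7, 20.2 and 22.4 CPM in WT (log2 0.81 ± 0.14, adjusted p = 0.000796, edgeR), and was called with any 1 library left out and without both that stand apart (0.80, adjusted p = 0.0111). WRKY75 differed by 0.73 ± 0.16 (adjusted p = 0.00786), and that call ended without WT 1 h replicate 1 or 3 or wrky40 1 h replicate 3 (0.63 to 0.67, adjusted p 0.0578 to 0.0832) and without both that stand apart (0.67, adjusted p = 0.0752). WRKY48, not called at 1 h, was called higher with the replicate block (0.50, adjusted p = 0.034), by DESeq2 (0.50, adjusted p = 0.0363) and in a fit of the 2 groups alone (0.50, adjusted p = 0.014).

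At 2 h the genes called in wrky40 were WRKY71 and WRKY57. WRKY71 had 6.43, 7.05 and 5.72 CPM in wrky40, against 1.99, 3.39 and 2.72 CPM in WT, with no overlap (log2 1.23 ± 0.26, adjusted p = 0.0046, edgeR). Its call ended without WT 2 h replicate 1 (1.06, adjusted p = 0.0505). WRKY57 differed by 0.30 ± 0.08 (adjusted p = 0.0287), and lost the call without WT 2 h replicate 1 or 2 or wrky40 2 h replicate 2 or 3 (0.26 to 0.31, adjusted p 0.0614 to 0.145) and in a fit of the 2 groups alone (adjusted p = 0.0675). Calls at 2 h were gained by WRKY45 with the replicate block (0.40, adjusted p = 0.0442) and in a fit of the 2 groups alone (0.39, adjusted p = 0.0115). WRKY50 gained one by DESeq2 (1.01, adjusted p = 0.0464) and in a fit of the 2 groups alone (1.00, adjusted p = 0.0191). At 0 h none of the 10 was called by edgeR or DESeq2, where 0.332% of all genes changed. At an unadjusted p under 0.05 there were 2 by edgeR, where 7.45% of all genes passed that limit. DESeq2 gave 4 at that limit, and its share over all genes was not computed.

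In the wrky18 single mutant none of the 10 genes was called at 0 h, 1 h or 2 h by edgeR or DESeq2, where 0.0234%, 0.117% and 0.103% of all tested genes changed. At an unadjusted p under 0.05 there were 1, 3 and 1 of the 10 by edgeR, where 3.79%, 11.1% and 8.34% of all genes passed that limit. WRKY75 at 1 h differed by log2 0.48, with a 95% interval of 0.16 to 0.80 (adjusted p = 0.218, edgeR), and WRKY45 by 0.43, with an interval of 0.14 to 0.72 (adjusted p = 0.228). WRKY8 went the other way in wrky18, at -0.21, with an interval of -0.53 to 0.10.

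The double mutant was also set against each single mutant, using the same double-mutant libraries. Against wrky40, WRKY75 was higher at 2 h (log2 0.55 ± 0.14, adjusted p = 0.0267, edgeR), the 1 gene of the 10 called then, where 3.26% of all genes changed (1.18% higher). That call ended without wrky40 2 h replicate 2 or 3 or wrky18 wrky40 2 h replicate 1 or 2 (0.49 to 0.54, adjusted p 0.0823 to 0.169). At 1 h none was called against wrky40 by edgeR or DESeq2, where 0.112% changed, and 3 had an unadjusted p under 0.05 by edgeR, as did 8.56% of all genes. At 0 h WRKY48 was called, where 1.52% changed (0.632% higher), with 8.05, 9.25 and 9.35 CPM in wrky18 wrky40, against 7.09, 3.57 and 5.70 CPM in wrky40 (0.69 ± 0.18, adjusted p = 0.0489). It lost that call without wrky40 0 h replicate 2 or 3 or any 1 wrky18 wrky40 0 h library (0.46 to 0.76, adjusted p 0.0592 to 0.364), with RLE scaling (adjusted p = 0.0509) and in a fit of the 2 groups alone (adjusted p = 0.337). WRKY50 gained one without wrky40 0 h replicate 1 (3.11, adjusted p = 0.032). That value rests on few counts: wrky40 0 h replicates 2 and 3 held 1 count each, against 4, 11 and 15 counts in wrky18 wrky40.

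Against wrky18, 3 of the 10 were higher at 2 h, where 6.48% of all genes changed (3.11% higher). They were WRKY50 (log2 1.67 ± 0.37, adjusted p = 0.00379, edgeR), WRKY71 (1.12 ± 0.26, adjusted p = 0.00597) and WRKY75 (0.70 ± 0.14, adjusted p = 0.00184). The WRKY71 call ended without wrky18 2 h replicate 3 or wrky18 wrky40 2 h replicate 1 (0.95 and 0.78, adjusted p 0.0683 and 0.093). At 1 h 5 were higher and WRKY23 was lower, where 5.88% changed (4.39% higher, 1.49% lower). WRKY8 had 18.6, 20.1 and 18.8 CPM in wrky18 wrky40, against 10.8, 11.8 and 11.3 CPM in wrky18 (0.76 ± 0.15, adjusted p = 0.00166), and was called with any 1 library left out and without both that stand apart (0.78, adjusted p = 0.00944). WRKY75 (0.62 ± 0.15) ended without wrky18 1 h replicate 2 (0.55, adjusted p = 0.0733) and was called without both that stand apart (adjusted p = 0.0483). The calls for WRKY48 (0.54 ± 0.15), WRKY71 (0.95 ± 0.29), WRKY45 (0.55 ± 0.14) and WRKY23 (-0.42 ± 0.13) ended without both that stand apart (adjusted p 0.0612 to 0.131). With 1 library of either group left out, WRKY48 and WRKY71 were not called without any of the 6, WRKY45 without wrky18 replicate 2 or 3 or wrky18 wrky40 replicate 1 or 2, and WRKY23 without wrky18 replicate 1 or 2 or any wrky18 wrky40 replicate (adjusted p 0.0511 to 0.222). WRKY50 was called at 1 h by DESeq2 (1.16, adjusted p = 0.0249) and in a fit of the 2 groups alone (1.15, adjusted p = 0.0453). At 0 h WRKY48 was called (0.78 ± 0.18, adjusted p = 0.0271), where 1.46% changed (1.01% higher), and lost it without wrky18 0 h replicate 1 or 2 or wrky18 wrky40 0 h replicate 2 or 3 (0.59 to 0.77, adjusted p 0.0771 to 0.201) and in a fit of the 2 groups alone (adjusted p = 0.221). WRKY28 gained one without wrky18 0 h replicate 3 (0.66, adjusted p = 0.0251).

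Whether the change from 0 h itself differed between a mutant and WT was tested as an interaction. None of the 10 genes was called in any of the 6 interactions by edgeR or DESeq2. At an unadjusted p under 0.05 edgeR gave 2 in wrky18 wrky40 at 1 h, where 9.54% of all genes passed that limit, and none in the other 5, where 2.87% to 12.8% did. At that limit DESeq2 gave 2 in wrky18 wrky40 at 1 h, 1 in wrky18 wrky40 at 2 h and 1 in wrky40 at 1 h. Its shares over all genes were not computed. Of all genes, 0.824% were called at 1 h and 1.95% at 2 h in wrky18 wrky40, 0.0937% and 0.215% in wrky40, and 0% at both times in wrky18. For WRKY75 the interaction in wrky18 wrky40 was log2 0.53 at 1 h (95% interval -0.10 to 1.15, adjusted p = 0.655, edgeR) and 0.35 at 2 h (-0.26 to 0.96). For WRKY45 it was 0.46 at 1 h (0.05 to 0.87, adjusted p = 0.423). The double mutant's distance from the sum of both single mutants' differences was likewise not called for any of the 10 at 0 h, 1 h or 2 h by edgeR or DESeq2, where 0.0375%, 0.0609% and 0.323% of all genes were called. At an unadjusted p under 0.05 edgeR gave 1, 1 and 0 of the 10, where 8.07%, 11% and 11.3% of all genes passed that limit. For WRKY75 that distance was -0.11 at 1 h (-0.55 to 0.33) and 0.33 at 2 h (-0.08 to 0.74).

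Of the other 8 genes of group IIc, 4 passed the filter on low counts and were tested. WRKY49 fell in WT, by log2 -2.82 ± 0.31 at 1 h and -2.75 ± 0.30 at 2 h. At 2 h it was also lower in wrky18 wrky40, with 15 counts over the 3 libraries, than in WT, with 59 counts (log2 -1.70 ± 0.48, adjusted p = 0.0146, edgeR), and than in wrky18, with 88 counts (-2.36 ± 0.45, adjusted p = 0.000742). WRKY59 was called higher at 2 h, with 22 counts over 3 WT libraries, against 3 counts at 0 h, a ratio of 7.91 after scaling (95% interval 2.38 to 41.3, counting error only). With so few counts at 0 h, WRKY59 too passed the filter through groups where it is higher. In the rest of the WRKY family, 45 of 49 genes were tested. In WT 34 of these 45 were higher and 5 lower at 1 h (median log2 2.07), where 28.8% of all tested genes were higher and 32% lower. At 2 h 36 were higher and 3 lower (median 2.06), where 36.7% of all tested genes were higher and 35.1% lower. In wrky18 wrky40 against WT at 2 h, 10 of these 45 were higher and 6 lower, the mutated genes WRKY18 and WRKY40 among the lower ones, where 14.2% of all tested genes changed (7.23% higher).

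Genes reported as targets or partners of these factors were read from a list of 22, of which 19 were tested. In WT 5 were higher and 4 lower at 1 h (list median -0.10), where 60.8% of all tested genes changed. At 2 h 9 were higher and 3 lower (median -0.01), where 71.8% changed. Both shares of the list lie below those of all genes. ACS6, an ethylene synthesis enzyme, rose by log2 4.96 ± 0.21 at 2 h, RAX1, a branching regulator, by 4.15 ± 0.20, and SIB1, a VQ protein that binds WRKY factors, by 3.12 ± 0.21, while the catalase gene CAT2 fell by 1.58 on the log2 scale. In wrky18 wrky40 against WT at 2 h, 5 were higher and 1 lower, where 14.2% of all genes changed. ICS1 averaged 115 ± 26 CPM in wrky18 wrky40 and 112 ± 33 CPM in wrky40 at 2 h, against 23.7 ± 2.7 CPM in WT (SD, n = 3 each). Those differences from WT were log2 2.28 ± 0.19 (adjusted p = 1.95e-10, edgeR) and 2.25 ± 0.18 (adjusted p = 9.02e-10). SIB1 averaged 16.5 ± 1.2 CPM in wrky18 wrky40 at 2 h, against 5.16 ± 0.60 CPM in WT (SD, n = 3 each; log2 1.68 ± 0.15), and the auxin response gene IAA29 was lower there (-2.04 ± 0.42).

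All 11 listed genes of the early flg22 pathway rose at both times in WT, where 28.8% of all tested genes were higher at 1 h and 36.7% at 2 h. Among them were the co-receptor kinase gene BAK1 (log2 2.85 ± 0.08 at 1 h), the MAP kinase gene MPK3 (3.59 ± 0.11 at 1 h) and the marker gene FRK1 (7.29 ± 0.20 at 2 h). Against WT at 2 h, 3 of the 11 were higher in wrky18 wrky40, among them the NADPH oxidase gene RBOHD (0.70 ± 0.12), and FLS2 was lower (-0.37 ± 0.08). In that comparison 14.2% of all tested genes changed (7.23% higher).

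Likeness of pattern was measured as Pearson's r between the log2 CPM means over the 12 groups, among 17328 genes, which share the same 36 libraries and the same time course. Most like WRKY75 were NAC053 (r = 0.999), UCC2 (0.998), SC3 (0.998), RGS1 (0.998) and AT3G66654 (0.997). Among the 10 genes, WRKY75 was most like WRKY8 (r = 0.993) and WRKY71 (0.986), and less like its relative WRKY45 (0.907). WRKY28 and WRKY48 were alike (0.981), and WRKY28 and WRKY57 ran opposite (-0.915).

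The windows of 250 bases before the annotated gene starts were searched for the W-box core TTGAC on both strands. It was in 5 of the 10 windows and in 45.0% of the 26699 windows of the genome's genes. WRKY75 held 1 core, 11 bases before its start, and WRKY45 held 3, at 223, 188 and 15 bases, a number reached or passed by 3.38% of all windows. These 2 windows are shown because they hold a core and both genes were higher in wrky18 wrky40 at 1 h and 2 h. The cores (or GTCAA, the core read on the other strand) are in capitals. They are TAIR10.1 sequence, given 5′ to 3′ on the gene's strand, at chr5:4151202-4151451 for WRKY75 and chr3:327413-327662 for WRKY45, both on the minus strand.
WRKY75: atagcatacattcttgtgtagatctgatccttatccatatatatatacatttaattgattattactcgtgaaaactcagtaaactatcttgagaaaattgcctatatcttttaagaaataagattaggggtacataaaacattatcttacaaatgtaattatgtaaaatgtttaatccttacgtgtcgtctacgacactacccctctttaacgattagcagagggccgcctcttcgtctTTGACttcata
WRKY45: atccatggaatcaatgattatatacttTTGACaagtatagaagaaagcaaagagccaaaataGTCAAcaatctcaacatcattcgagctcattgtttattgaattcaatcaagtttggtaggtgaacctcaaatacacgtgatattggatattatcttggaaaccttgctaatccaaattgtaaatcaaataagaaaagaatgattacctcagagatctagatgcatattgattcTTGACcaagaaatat
WRKY8, WRKY28 and WRKY51 held 1 core each, and the windows of WRKY71 and WRKY50, which were also higher in wrky18 wrky40 at both times, held none. The longer form TTGACC or TTGACT was in 3 of the 10 windows (WRKY75, WRKY45 and WRKY28) and in 28.5% of all windows. A match is a description of these letters and not a bound site.

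**Figure D4:**
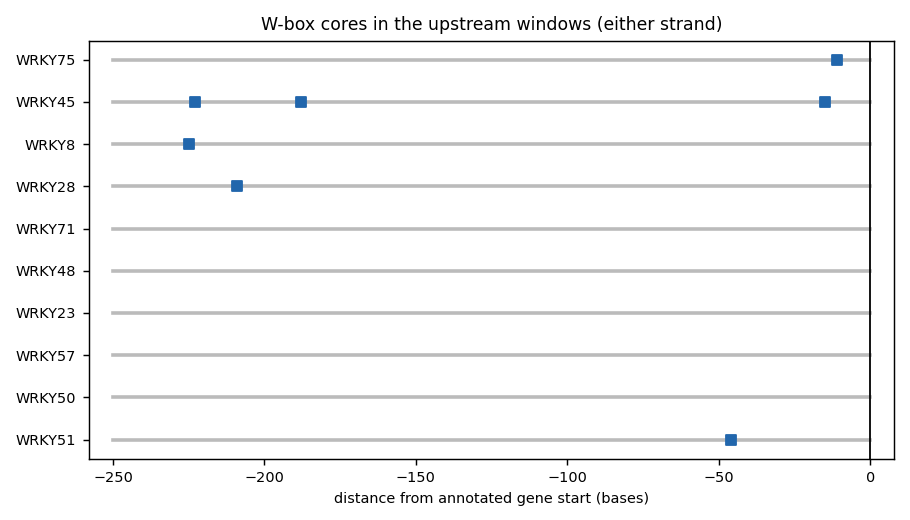
Places of the core TTGAC, on either strand, in the 250 bases before the annotated start of each of the 10 genes, with the distance from the start in bases on the horizontal axis and 1 square per core. WRKY45 has 3 squares, WRKY75, WRKY8, WRKY28 and WRKY51 have 1 each, and the other 5 genes have none.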

How the data were processed

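Libraries were polyadenylated RNA made with a stranded TruSeq kit, per the labels. Reads were checked with FastQC 0.11.2 and aligned with TopHat2 2.0.10 to TAIR10, and counted with HTSeq, per the submitters' processing notes. The HTSeq version and strand setting are not given in the sources used here, so reads of a gene and of an antisense partner may not be told apart. By their TAIR10.1 positions, none of the 10 genes overlaps another gene of the count table on either strand. The deposited table holds raw counts per gene, not normalized by the authors. From these counts, edgeR 4.0.16 (R 4.3.3) was used: filterByExpr, TMM scaling, 1 quasi-likelihood fit over all 36 libraries and 12 groups (24 residual degrees of freedom), 36 comparisons, and Benjamini-Hochberg adjustment within a comparison over 21356 genes, with calls at 0.05. The fit was tested on counts simulated with changes only in some genes of wrky18 wrky40 at 2 h, a setting unlike the time course. RPKM used exon lengths of TAIR10.1; gene positions and sequences come from RefSeq's TAIR10.1 alone, since the table gives only locus names. The 10 genes, the gene lists and the rule for naming genes (all 10 genes; from each list up to 4 called genes with the smallest adjusted p; the 5 most like patterns for WRKY75) were chosen with earlier results of these data known. AT4G31805 was named after its values were seen. Alternatives were DESeq2 1.42.0, RLE scaling, no filter, a replicate block, a fit of only the groups compared, and each library left out in turn; leaving out both libraries that stand apart was added after seeing the data. Intervals for ratios of counts cover counting error only, and reads without molecular identifiers are not independent molecules.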

Additional observations from a re-analysis of the deposited data

How the results depend on the processing

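Of the 360 values (10 genes in 36 comparisons), 142 were called and none changed sign in a called result under any alternative run. RLE scaling and no filter each ended 3 calls, DESeq2 ended 2 and added 5, and fits of only the groups compared ended 10 and added 8 of 347 values. The number of genes called among the 10 moved by over 1.5 times in these cases. Without both libraries that stand apart, it was 3 in wrky18 wrky40 against WT at 1 h, in place of 6, 1 in wrky40 against WT at 1 h, in place of 2, and 2 in wrky18 wrky40 against wrky18 at 1 h, in place of 6. In fits of only the groups compared it was 0 at 0 h for wrky18 wrky40 against WT, against wrky18 and against wrky40, in place of 2, 1 and 1, and with RLE scaling it was also 0 in the last. With each library left out in turn, the count ran from 0 to 3 in wrky18 wrky40 against WT at 0 h and 3 to 6 at 2 h, from 1 to 2 in wrky40 against WT at 1 h and 0 to 2 at 2 h, from 0 to 2 and 1 to 3 in wrky18 wrky40 against wrky18 at 0 h and 1 h, and from 0 to 2 at 0 h and 0 to 1 at 2 h against wrky40. It moved by no more than 1.5 times in wrky18 wrky40 against WT at 1 h (4 to 6) and against wrky18 at 2 h (2 to 3). Against 0 h it stayed at 9 or 10 in every genotype. Leaving out 1 library leaves 2 in its group, and it also added calls in some cases, as for WRKY28 in wrky18 wrky40 against WT at 0 h. Why the counts moved was not tested.

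Replicate numbers were not taken to pair the samples. In 11 of 27 comparisons of 2 groups all 3 same-numbered pairs deviated together with a correlation above 0.1 (range -0.02 to 0.38), and 35 of 36 libraries deviated most like their own number, the exception being WT 1 h replicate 3, as a hint from the data and not the design. The replicate block ended no call among the 10 and added 2, WRKY48 in wrky40 against WT at 1 h (log2 0.50, adjusted p = 0.034, edgeR) and WRKY45 at 2 h (0.40, adjusted p = 0.0442).

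The counts over all genes that serve as background moved more. For wrky18 against WT at 0 h, 1 h and 2 h they were 5, 25 and 22, over the alternatives other than left-out libraries 1 to 8, 20 to 143 and 27 to 92, and with each library left out in turn 4 to 26, 11 to 55 and 10 to 35. For wrky40 against WT they were 71, 477 and 858, and ran 3 to 185, 452 to 758 and 773 to 1412, with libraries left out 19 to 241, 190 to 604 and 403 to 646. For wrky18 wrky40 against WT they were 547, 1237 and 3031, and ran 78 to 771, 1128 to 1949 and 2778 to 3685, with libraries left out 118 to 894, 731 to 948 and 1656 to 2908. Against wrky18 they were 312, 1256 and 1384, with 6 to 640, 1012 to 1964 and 1298 to 1790, with libraries left out 16 to 725, 580 to 1464 and 646 to 1160. Against wrky40 they were 325, 24 and 696, with 37 to 522, 21 to 80 and 592 to 1147, with libraries left out 68 to 845, 6 to 14 and 180 to 1158. Without both libraries that stand apart, 483 genes were called in wrky18 wrky40 against WT at 1 h, 186 in wrky40 against WT, 11 in wrky18 against WT, 606 against wrky18 and 8 against wrky40. For the interactions in wrky18 wrky40 at 1 h and 2 h they were 176 and 417, with 162 to 335 and 386 to 623, in wrky40 20 and 46, with 1 to 54 and 12 to 104, and in wrky18 0 at both, with up to 2, and for the distance from additivity at 0 h, 1 h and 2 h they were 8, 13 and 69, with 0 to 42, 11 to 88 and 68 to 166. With libraries left out the interactions in wrky18 wrky40 gave 57 to 271 and 277 to 488, those in wrky40 4 to 55 and 19 to 125, and the distance from additivity 4 to 138, 4 to 36 and 28 to 136. The genes of the lists were not recomputed under the alternatives. Comparisons of genes with few counts (WRKY50, WRKY51, WRKY71 at 0 h) rest on small numbers. Their replicates can also spread widely, as with 29, 2 and 9 counts of WRKY51 in wrky40 at 0 h. The part of depth was not tested.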
